A study of Mus musculus with 9 samples.

Results

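The genes described here encode machinery that activates the replicative helicase, copies DNA and repacks the copies into chromatin. They are 38 genes chosen by name for DNA polymerases, clamp loading, the GINS complex, fork protection and chromatin assembly, out of 19938 genes named on the array. Each gene was read by 1 probe set, the one with the highest mean over the 9 arrays where it had several. All 38 had a probe set of their own and passed the filter on low values, so all 38 were among the 11963 genes tested.

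RNA came from NIH-3T3, an established mouse embryonic fibroblast line, grown as bulk cultures. The 3 groups were cells transfected with RISC-free siRNA, a control RNA kept out of the silencing complex (control), with a mimic of the microRNA mmu-miR-378-3p (mimic), or with an inhibitor of it (inhibitor). Every group had 3 arrays, and all received 25 nM RNA with DharmaFECT 1 and were harvested after 48 hours. Whether the 3 arrays of a group came from separate cultures is not stated, and the p-values then reflect nothing but how far these arrays scatter, which could be technical scatter. No mimic or inhibitor of another sequence was among the groups, so a response to miR-378-3p and a response to any active small RNA cannot be told apart.

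DNA replication starts when GINS and Cdc45 join the loaded MCM rings to form the active helicase. Polymerase alpha with primase lays down primers, polymerase epsilon extends the leading strand, and polymerase delta copies the lagging strand in short Okazaki fragments, held to DNA by the ring-shaped clamp PCNA. Behind the fork, the chaperone CAF-1 places histones on the new DNA, and Uhrf1 and Dnmt1 copy its methylation pattern. Most of these genes are induced as fibroblasts leave quiescence and enter S phase, the part of the cell cycle in which DNA is copied, and many are targets of E2F transcription factors.

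The 75th percentile of all probe sets ran from 5.55 on mimic 3 to 5.76 on inhibitor 1 (log2), with the controls at 5.64 to 5.65. These 2 arrays also lay at the ends of the first principal component of all genes tested, which held 60.5% of the variance, with scores of -20.50 and 20.88 against -4.38 to -2.78 for the controls. Of 10 fibroblast markers, the 9 with a probe set of their own all passed the level filter, with Col1a1 at 10.97, Vim at 11.19 and Pdgfra at 10.25 (log2, mean of 9 arrays). Thy1 rose by 0.38 with the mimic (limma, adjusted p = 0.00823) and Col3a1 fell by 0.22 with the inhibitor (adjusted p = 0.0427). Between mimic and inhibitor, Col3a1, Thy1 and S100a4 were higher with the mimic (0.32, 0.22 and 0.23) and Pdgfrb was lower (-0.27). Of 24 markers of leukocytes, epithelium, endothelium and muscle, 16 lay below the level filter of 3.86, among them Ptprc, Epcam, Cdh5 and Myog. Limma called 0 of the other 8 in either comparison with the control, with 2 (mimic) and 1 (inhibitor) at an unadjusted p under 0.05. Between mimic and inhibitor it called 1 of the 8, Acta1, higher with the mimic by 0.28 (adjusted p = 0.0242), with 3 at an unadjusted p under 0.05. The part of these markers in the results below was not tested.

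With the mimic, transcripts of this machinery were lower than in the controls, and with the inhibitor they were higher. The median log2 difference of the 38 genes was -0.20 with the mimic, against -0.01 over all genes tested, and 0.24 with the inhibitor, against 0.01. Limma, with p-values adjusted over all 11963 genes, called 8 of the 38 lower with the mimic (2.45% of all genes were called lower) and 0 higher (1.10% of all genes; 0 members higher at an unadjusted p under 0.05). With the inhibitor it called 20 of the 38 higher (11.1% of all genes) and 0 lower (3.76% of all genes; 0 members lower at an unadjusted p under 0.05). The comparisons share the control arrays, so their values are not independent. In a bulk culture, fewer cells in S phase and less of each RNA per cell cannot be told apart.

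**Figure D1:**
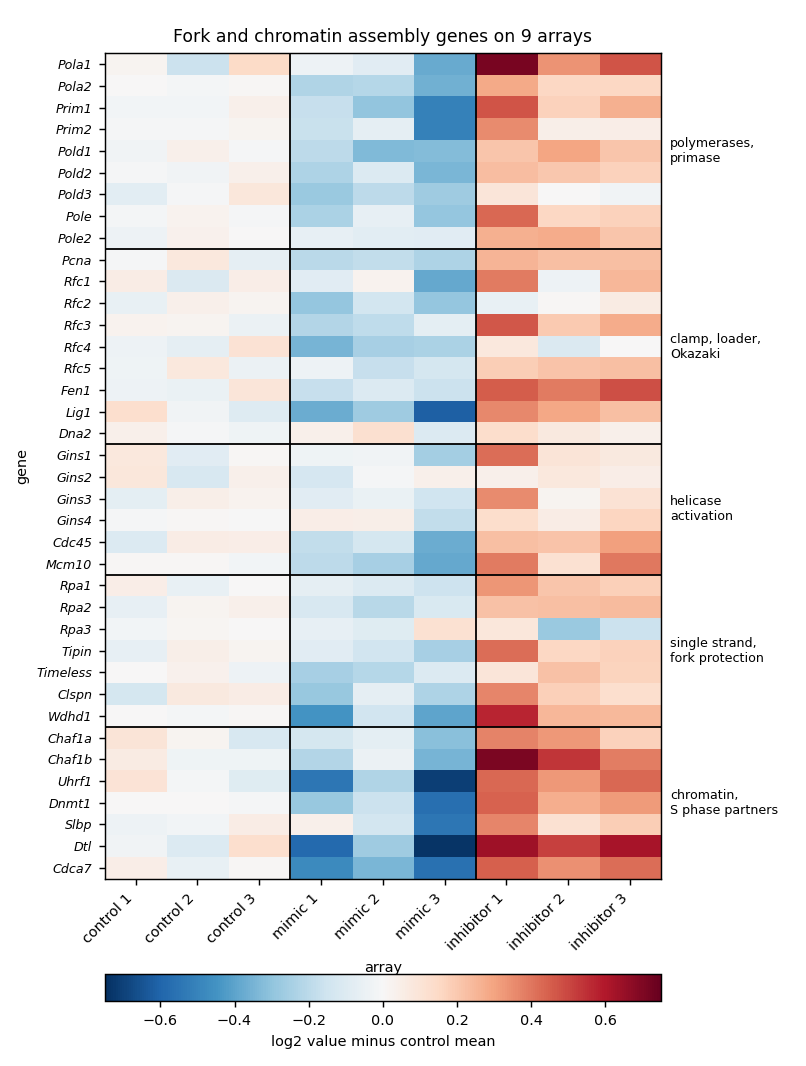
Log2 value minus the control mean (colour, blue lower and red higher) for the 38 genes (rows, grouped by role) on the 9 arrays (columns). The mimic columns are mostly blue, deepest on mimic 3, and the inhibitor columns mostly red, deepest on inhibitor 1; Rpa3, Dna2 and Gins2 stay pale or mixed.

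Taken array by array, the genes moved together. Their median deviation from the control mean was -0.19 on mimic 1, -0.14 on mimic 2 and -0.29 on mimic 3, and 0.36, 0.20 and 0.19 on inhibitors 1, 2 and 3, while the controls lay between -0.01 and 0.01. The median of all genes tested stayed between -0.05 (mimic 3) and 0.02 (inhibitor 1). Of the 38 genes, 31, 29 and 36 lay below every control on mimics 1, 2 and 3, against 30.3%, 24.4% and 49.5% of all genes. On inhibitors 1, 2 and 3, 35, 31 and 32 lay above every control, against 45.3%, 38.5% and 40.7%. Mimic 3 was the lowest mimic array for 25 of the 38 (57.7% of all genes), and inhibitor 1 the highest inhibitor array for 27 (50.8%). The part of these 2 arrays in the result is measured by leaving both out, which gave a median of -0.16 with the mimic and 0.21 with the inhibitor.

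**Figure D2:**
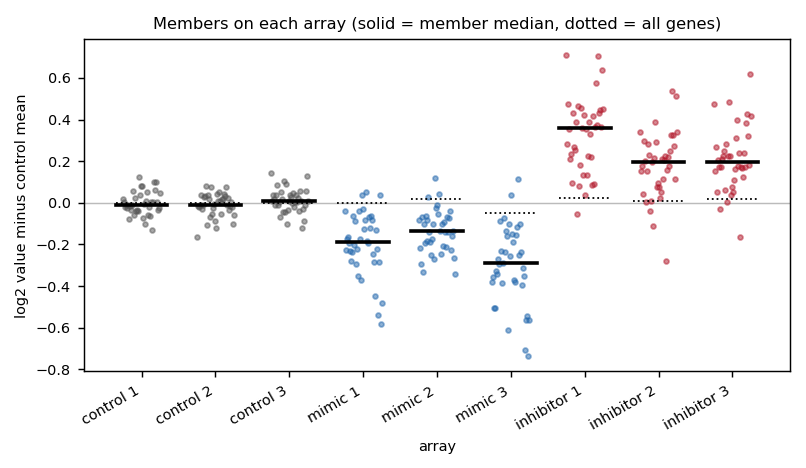
Each point is 1 of the 38 genes on 1 array, as its log2 value minus the control mean; the solid line is the median of the 38 and the dotted line that of all genes tested. The solid lines fall to -0.29 on mimic 3 and rise to 0.36 on inhibitor 1, and the dotted lines stay within 0.05 of 0.

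A first principal component of the 38 genes over the 9 arrays held 88.8% of their variance, as a description. Within groups, the median SD of a member was 0.05 for control, 0.11 for mimic and 0.08 for inhibitor arrays, against 0.05, 0.09 and 0.08 for all genes tested. Slbp had the widest spread in the mimic group (SD 0.30) and Pole2 the narrowest (SD 0.01).

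The promoters of the genes were searched for the letters of known sites. The 38 genes were chosen by name, and many are targets of E2F transcription factors. The shares below describe this list and not its response on the arrays. RefSeq (GRCm38.p6) gave 38 promoter windows for 31 of the 38 genes, each of 300 bases from 250 before to 50 after a transcription start. Letters of the E2F site were searched on both strands as TTTCCCGC, TTTGGCGC and TTTCGCGC, and a GC box, searched below as GGGCGG, can share bases with such a match. At least 1 match was present in 12 of the 38 windows (31.6%), against 606 of all 32851 windows (1.84%). By gene, 12 of 31 held a match, against 2.12% of 27025 genes. These were Pola1, Pold1, Pold3, Pole2, Rfc3, Lig1, Gins3, Clspn, Uhrf1, Dnmt1, Dtl and Cdca7. The CCAAT box (CCAAT) was in 52.6% of the windows against 37.4% of all, the GC box in 63.2% against 35.7%, and the cell cycle element CHR (TTTGAA) in 13.2% against 17.9%. A match describes the letters and shows no binding.

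Windows are shown for the 5 genes called in both comparisons with the control, 5′ to 3′ along the gene, with E2F matches in capitals. Dtl lies on the minus strand at chr1:191575495-191575794, and its match begins 8 bases before the start. Cdca7, on the plus strand at chr2:72475969-72476268, has its match 71 bases before the start. Pold1 is on the minus strand at chr7:44548766-44549065, with a match from base 40 after the start. Uhrf1 has a pair of windows on the plus strand, of which the one at chr17:56303087-56303386 holds no match and the one at chr17:56304063-56304362 holds a match 185 bases before its start. Pola2, on the minus strand at chr19:5964157-5964456, holds none of these letters.
Dtl: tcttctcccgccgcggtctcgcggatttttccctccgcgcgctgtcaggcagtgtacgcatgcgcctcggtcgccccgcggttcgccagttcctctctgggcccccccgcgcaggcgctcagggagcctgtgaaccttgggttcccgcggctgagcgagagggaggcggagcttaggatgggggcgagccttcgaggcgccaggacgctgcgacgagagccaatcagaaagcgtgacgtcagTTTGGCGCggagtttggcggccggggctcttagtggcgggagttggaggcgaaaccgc
Cdca7: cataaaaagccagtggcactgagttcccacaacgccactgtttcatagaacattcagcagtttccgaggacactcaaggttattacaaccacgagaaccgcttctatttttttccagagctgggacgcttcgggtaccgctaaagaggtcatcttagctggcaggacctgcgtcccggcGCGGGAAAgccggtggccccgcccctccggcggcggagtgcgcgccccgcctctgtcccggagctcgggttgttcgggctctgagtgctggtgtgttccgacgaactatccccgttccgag
Pold1: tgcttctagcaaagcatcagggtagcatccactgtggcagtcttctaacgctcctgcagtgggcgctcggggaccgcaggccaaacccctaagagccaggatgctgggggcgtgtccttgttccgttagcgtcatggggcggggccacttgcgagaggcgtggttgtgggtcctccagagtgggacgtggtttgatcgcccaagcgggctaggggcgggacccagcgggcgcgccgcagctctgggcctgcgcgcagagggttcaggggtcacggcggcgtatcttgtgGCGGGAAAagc
Uhrf1, first window: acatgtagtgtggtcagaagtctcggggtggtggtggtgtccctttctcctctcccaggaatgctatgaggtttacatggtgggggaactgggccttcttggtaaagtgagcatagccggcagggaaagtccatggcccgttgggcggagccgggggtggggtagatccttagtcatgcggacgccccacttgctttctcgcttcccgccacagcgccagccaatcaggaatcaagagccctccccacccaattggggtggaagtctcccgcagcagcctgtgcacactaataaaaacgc
Uhrf1, second window: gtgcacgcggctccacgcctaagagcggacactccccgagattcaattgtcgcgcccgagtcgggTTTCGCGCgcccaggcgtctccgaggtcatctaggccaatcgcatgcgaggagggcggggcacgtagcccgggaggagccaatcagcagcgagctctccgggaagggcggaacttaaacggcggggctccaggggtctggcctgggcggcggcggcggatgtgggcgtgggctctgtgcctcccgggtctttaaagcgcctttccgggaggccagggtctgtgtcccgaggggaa
Pola2: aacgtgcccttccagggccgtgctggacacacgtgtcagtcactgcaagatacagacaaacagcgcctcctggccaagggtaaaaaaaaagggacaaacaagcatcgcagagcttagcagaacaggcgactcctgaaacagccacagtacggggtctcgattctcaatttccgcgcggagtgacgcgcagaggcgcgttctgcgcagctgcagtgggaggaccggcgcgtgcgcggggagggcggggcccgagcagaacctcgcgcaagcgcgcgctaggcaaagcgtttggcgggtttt

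The largest differences were among the genes of chromatin assembly, maintenance methylation and S phase control, of which 3 of 7 fell with the mimic and 6 of 7 rose with the inhibitor. Dtl encodes the receptor subunit of a ubiquitin ligase that destroys the licensing factor Cdt1 on PCNA-bound DNA. Its log2 value was 5.15, 5.07 and 5.30 on the 3 control arrays, 4.59, 4.90 and 4.43 on the mimic arrays and 5.81, 5.68 and 5.79 on the inhibitor arrays. The 3 groups did not overlap, and mimic 2 lay nearest the controls. Dtl fell 1.44-fold with the mimic (log2 difference -0.53 ± 0.11, SE, limma, adjusted p = 0.0239) and rose 1.51-fold with the inhibitor (0.59 ± 0.11, adjusted p = 0.00517). It was the 1 member called past 1.5-fold against the control. Of all 11963 genes tested, 175 were called higher past 1.5-fold with the inhibitor and 23 lower with the mimic.

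Cdca7 encodes a zinc finger protein that works with the remodeller Hells in DNA methylation. It stood at 7.07, 6.97 and 7.04 for control, at 6.55, 6.68 and 6.46 for mimic and at 7.48, 7.37 and 7.44 for inhibitor arrays (log2). Again no group overlapped another, and the SD within a group was at most 0.11. The fall with the mimic was 0.46 ± 0.06 (log2, SE; limma, adjusted p = 0.00424) and the rise with the inhibitor 0.40 ± 0.06 (adjusted p = 0.00256).

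Uhrf1, which reads half-methylated DNA and brings in Dnmt1, had log2 values of 7.52, 7.41 and 7.33 for control, 6.88, 7.19 and 6.71 for mimic and 7.85, 7.74 and 7.85 for inhibitor arrays. The mimic arrays were all low but far apart (SD 0.24). Its log2 difference was -0.49 ± 0.10 with the mimic (limma, adjusted p = 0.0307) and 0.39 ± 0.10 with the inhibitor (adjusted p = 0.0300). Dnmt1, the maintenance methyltransferase itself, differed by -0.34 ± 0.09 with the mimic, which did not pass (limma, adjusted p = 0.0798), and rose by 0.35 ± 0.09 with the inhibitor (adjusted p = 0.0291).

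Chaf1a and Chaf1b encode the large and middle subunits of CAF-1. Chaf1b stood at 5.50, 5.40 and 5.40 for control, at 5.21, 5.39 and 5.08 for mimic and at 6.14, 5.97 and 5.82 for inhibitor arrays (log2). The inhibitor arrays were well above the rest, while mimic 2 lay just under the lowest control. Chaf1b rose by 0.54 ± 0.09 with the inhibitor (limma, adjusted p = 0.00378), and its difference with the mimic was -0.20 ± 0.09 (adjusted p = 0.314). Chaf1a rose by 0.29 ± 0.08 with the inhibitor (limma, adjusted p = 0.0372), with -0.17 for the mimic (adjusted p = 0.338). Slbp, which binds the stem-loop of histone mRNAs, was called in neither comparison, with log2 differences of -0.21 and 0.22 (limma, adjusted p = 0.460 and 0.284). Its inhibitor arrays all lay above the controls, and its mimic arrays overlapped them. A second probe set of Slbp ran from 6.90 to 7.09 on control, 6.70 to 7.01 on mimic and 7.11 to 7.29 on inhibitor arrays (log2).

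**Figure D3:**
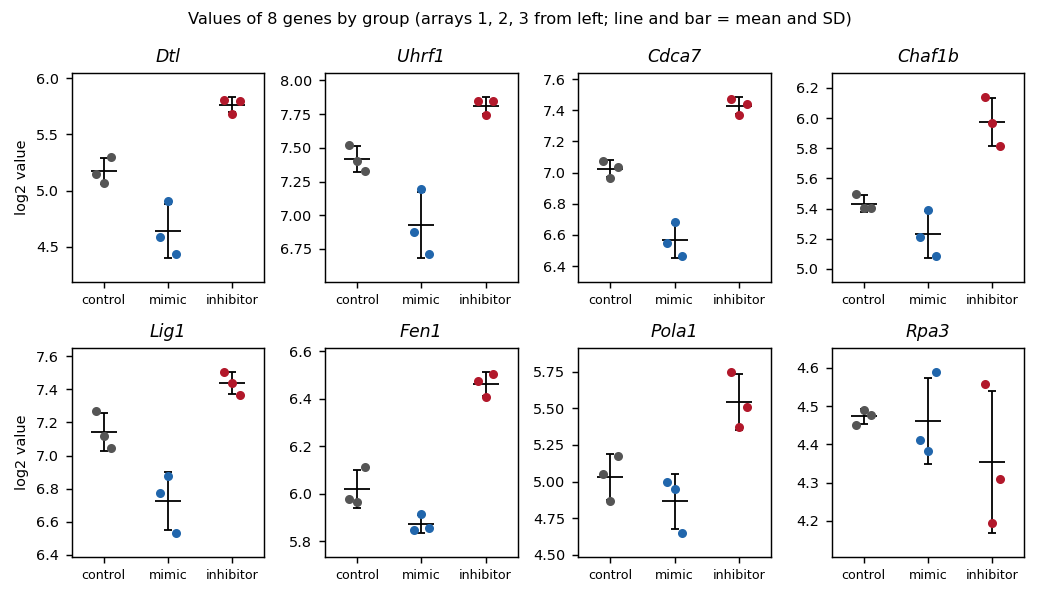
Log2 values (vertical axis, a separate scale in each panel) of 8 genes in the control, mimic and inhibitor groups, with arrays 1 to 3 from left to right and the mean and SD (n = 3). Dtl, Uhrf1, Cdca7 and Lig1 are low with the mimic and high with the inhibitor, Chaf1b, Fen1 and Pola1 stand out mainly with the inhibitor, and the groups of Rpa3 overlap.

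For the polymerases and primase, 3 of 9 genes fell with the mimic and 5 of 9 rose with the inhibitor, with median log2 differences of -0.25 and 0.24. Pold1 encodes the catalytic subunit of polymerase delta. Its log2 values were 4.92, 4.99 and 4.94 for control, 4.76, 4.62 and 4.62 for mimic and 5.16, 5.25 and 5.16 for inhibitor arrays, so the groups were fully apart. It fell by 0.28 ± 0.05 with the mimic (adjusted p = 0.0199, limma) and rose by 0.24 ± 0.05 with the inhibitor (adjusted p = 0.0159).

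Polymerase alpha and primase were represented by 4 genes. Pola2, the regulatory subunit, was tight in the controls at 6.70, 6.68 and 6.70 (log2), lower with the mimic at 6.47, 6.48 and 6.34 and higher with the inhibitor at 6.98, 6.85 and 6.85. It fell by 0.27 ± 0.06 (limma, adjusted p = 0.0301) and rose by 0.20 ± 0.06 (adjusted p = 0.0418). The catalytic subunit gene Pola1 stood at 5.05, 4.87 and 5.18 for control, 4.99, 4.95 and 4.65 for mimic and 5.74, 5.37 and 5.51 for inhibitor arrays. Only its inhibitor arrays were apart from the controls, and the mimic arrays overlapped them. Pola1 rose by 0.51 ± 0.12 with the inhibitor (limma, adjusted p = 0.0166), and its difference with the mimic was -0.17 ± 0.12 (adjusted p = 0.559).

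Prim1, the catalytic primase subunit, had values of 6.55, 6.55 and 6.61 for control, 6.40, 6.28 and 6.07 for mimic and 7.04, 6.75 and 6.84 for inhibitor arrays (log2). The groups did not overlap, but the mimic arrays were spread widely. Its rise of 0.30 ± 0.09 with the inhibitor passed narrowly (limma, adjusted p = 0.0496), and its difference of -0.32 ± 0.09 with the mimic did not (adjusted p = 0.0923). The partner subunit Prim2 was called in neither comparison, at -0.25 and 0.15. In the epsilon polymerase, Pole2 rose by 0.25 ± 0.05 with the inhibitor (limma, adjusted p = 0.00512) and Pole, the catalytic subunit, differed by 0.25 ± 0.08 without passing (adjusted p = 0.0653); their mimic differences were -0.08 and -0.20, not called. Of the other delta subunit genes, Pold3 fell by 0.25 with the mimic (adjusted p = 0.0454, limma) and stood at 0.02 with the inhibitor, whereas Pold2 was at -0.22 and 0.20, called in neither. Whether the 2 subunits differ in response was not tested.

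The clamp, clamp loader and Okazaki fragment genes held 2 calls of 9 with the mimic and 4 of 9 with the inhibitor. Lig1, the ligase that seals Okazaki fragments, stood at 7.27, 7.12 and 7.04 for control, 6.77, 6.87 and 6.53 for mimic and 7.50, 7.44 and 7.37 for inhibitor arrays (log2). All mimic arrays lay below and all inhibitor arrays above the controls. Lig1 fell by 0.42 ± 0.09 with the mimic (adjusted p = 0.0309, limma), and its 0.29 ± 0.09 with the inhibitor fell just short (adjusted p = 0.0514).

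Fen1 encodes the flap endonuclease that removes primer flaps ahead of ligation. Its log2 values were 5.98, 5.97 and 6.11 for control, 5.85, 5.91 and 5.86 for mimic and 6.47, 6.41 and 6.50 for inhibitor arrays. Inhibitor arrays were close together and well above the rest. Fen1 rose by 0.44 ± 0.05 with the inhibitor (limma, adjusted p = 0.000739), the smallest adjusted p of the 38 genes in that comparison, and stood at -0.15 ± 0.05 with the mimic (adjusted p = 0.213). Dna2, a nuclease and helicase for long flaps, was at 0.02 and 0.08, called in neither.

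The clamp gene Pcna was at -0.20 ± 0.05 with the mimic, just short of the threshold (limma, adjusted p = 0.0550), and rose by 0.24 ± 0.05 with the inhibitor (adjusted p = 0.0115). A second probe set of Pcna ran from 8.86 to 9.03 on control, 8.71 to 8.74 on mimic and 9.15 to 9.19 on inhibitor arrays (log2), so its groups were apart in the same order. On each array it read close to the first probe set, as on control 2 (9.03 for both). Whether they read separate sequences was not tested. Mouse Pcna has processed pseudogenes, which either probe set could also read.

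Of the 5 subunits of the clamp loader RFC, Rfc3 and Rfc5 rose with the inhibitor and Rfc4 fell with the mimic. Rfc3 had values of 5.95, 5.95 and 5.88 for control, 5.71, 5.74 and 5.85 for mimic and 6.39, 6.12 and 6.21 for inhibitor arrays (log2), and rose by 0.31 ± 0.07 (limma, adjusted p = 0.0157). Rfc4 stood at 6.25, 6.22 and 6.40 for control, 5.94, 6.04 and 6.05 for mimic and 6.37, 6.18 and 6.29 for inhibitor arrays. Its inhibitor arrays overlapped the controls, with inhibitor 2 below all of them, and the mimic arrays lay below both other groups. Rfc4 fell by 0.28 ± 0.07 with the mimic, at the edge of the threshold (limma, adjusted p = 0.04995), with -0.01 for the inhibitor. Rfc5 rose by 0.21 with the inhibitor (limma, adjusted p = 0.0283). Rfc2 was at -0.24 with the mimic (limma, adjusted p = 0.0533) and 0.00 with the inhibitor, and the large subunit gene Rfc1 at -0.15 and 0.20, called in neither.

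Among the helicase activation genes the mimic gave the smallest median of the 5 roles, with 0 of 6 called (2 at an unadjusted p under 0.05, both lower; limma) and a log2 difference of -0.10. With the inhibitor 2 of 6 rose. Mcm10, which helps the helicase start, stood at 4.66, 4.66 and 4.63 for control, 4.46, 4.40 and 4.27 for mimic and 5.04, 4.77 and 5.05 for inhibitor arrays (log2). Cdc45, a subunit of the active helicase, had 5.91, 6.06 and 6.06 for control, 5.82, 5.87 and 5.64 for mimic and 6.23, 6.22 and 6.32 for inhibitor arrays. For both genes the groups did not overlap. Mcm10 rose by 0.30 ± 0.08 with the inhibitor (limma, adjusted p = 0.0285) and Cdc45 by 0.25 ± 0.07 (adjusted p = 0.0406), while their mimic differences of -0.27 and -0.23 did not pass (adjusted p = 0.0960 and 0.121).

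The 4 GINS subunit genes, whose products form 1 ring-like complex, were called in neither comparison with the control. Their log2 differences were -0.10, -0.03, -0.10 and -0.03 with the mimic for Gins1, Gins2, Gins3 and Gins4, and 0.20, 0.06, 0.16 and 0.12 with the inhibitor (limma, adjusted p of at least 0.216). The sign of Gins2 turned after quantile normalization with the inhibitor (-0.04) and that of Gins4 with the mimic (0.01).

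Among the genes of single-strand binding and fork protection, 0 of 7 were called with the mimic (4 at an unadjusted p under 0.05, all lower; limma) and 3 of 7 rose with the inhibitor. Wdhd1, the adaptor that ties polymerase alpha to the helicase, had log2 values of 5.51, 5.50 and 5.52 for control, 5.06, 5.37 and 5.11 for mimic and 6.08, 5.75 and 5.75 for inhibitor arrays. The controls agreed closely, the other groups were spread, and no group overlapped another. Wdhd1 rose by 0.35 ± 0.10 with the inhibitor (limma, adjusted p = 0.0372) and stood at -0.33 ± 0.10 with the mimic (adjusted p = 0.112).

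Rpa1, the large subunit of the single-strand binding complex RPA, stood at 6.92, 6.82 and 6.87 for control, 6.80, 6.77 and 6.72 for mimic and 7.20, 7.08 and 7.05 for inhibitor arrays (log2). It rose by 0.24 ± 0.06 with the inhibitor (limma, adjusted p = 0.0171), and Rpa2 by 0.23 ± 0.05 (adjusted p = 0.0122). The small subunit gene Rpa3 did not follow them, at -0.12 ± 0.09 with the inhibitor (limma, adjusted p = 0.429) and -0.01 with the mimic. Its inhibitor arrays read 4.56, 4.20 and 4.31 against controls at 4.45, 4.49 and 4.48, so inhibitor 1 alone lay above the controls. With mimic 3 and inhibitor 1 left out, Rpa3 fell by 0.22 with the inhibitor (limma, adjusted p = 0.0115). No other setting called a member lower with the inhibitor, including the fit without inhibitor 1 alone. Over all genes, 831 were called lower in this setting, against 450 with all 9 arrays. A second probe set of Rpa3 ran from 4.08 to 4.32 in the controls and from 4.04 to 4.12 with the inhibitor. The fork protection genes Tipin, Timeless and Clspn, the last a mediator of the replication checkpoint, were called in neither comparison, at -0.16, -0.19 and -0.19 with the mimic and 0.25, 0.16 and 0.22 with the inhibitor.

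**Figure D4:**
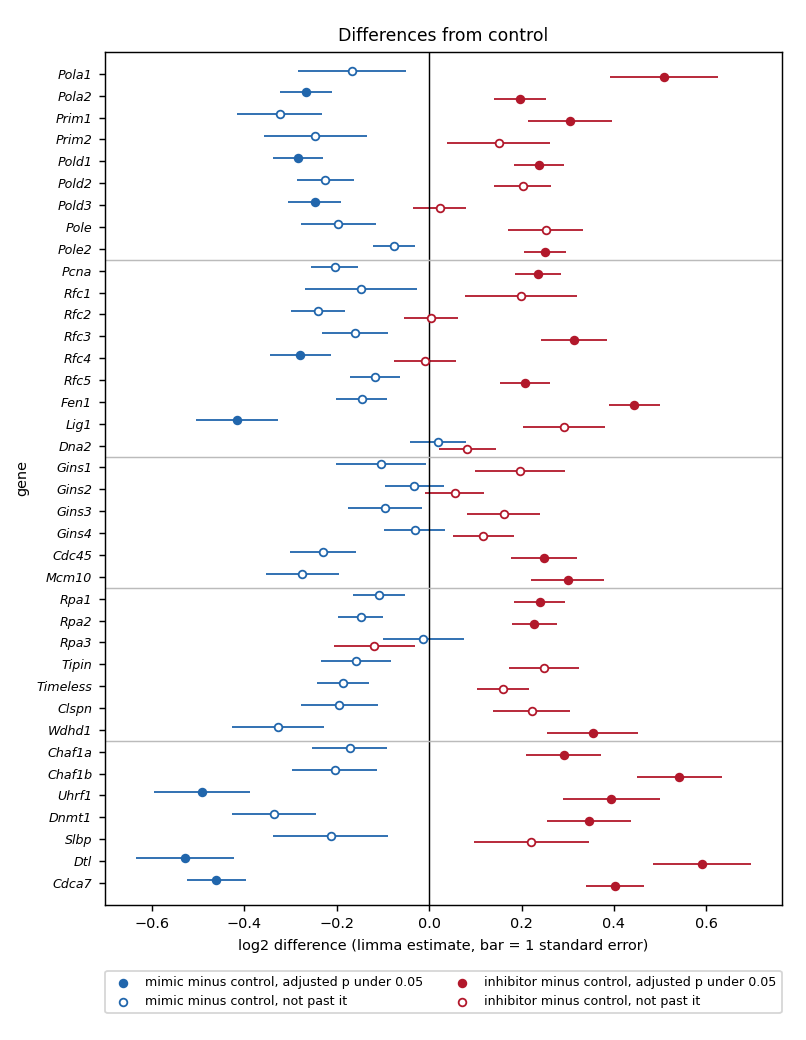
Limma log2 differences from the control (horizontal axis, bar = 1 standard error) for the mimic (blue) and the inhibitor (red) in the 38 genes, grouped by role; filled points have an adjusted p under 0.05. Of 38 blue points, 37 lie left of 0 and 8 are filled; of 38 red points, 36 lie right of 0 and 20 are filled.

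Groups that did not overlap were more frequent than calls. All 3 mimic arrays lay below all 3 controls for 26 of the 38 genes, against 12.7% of all genes tested. All 3 inhibitor arrays lay above all controls for 29 of the 38, against 24.9% of all genes.

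Many calls against the control were lost when 1 array was left out, and calls over all genes became fewer in the same fits. With the mimic the count of 8 fell to 1 without control 1, 2 or 3 (limma). It fell to 2 without mimic 1 and to 3 without inhibitor 3. Over all genes the count of 293 lower fell to 88, 113, 96, 125 and 190 in these fits, in the same order. Without mimic 3 and inhibitor 1 together, 13 members and 427 of all genes were lower. Of the 8 calls, that of Cdca7 held in each of 9 refits that dropped 1 array, with an adjusted p of at most 0.0314. Pold1 kept its call in 6 of the 9, Dtl in 5, Pola2, Lig1 and Uhrf1 in 4 each, Rfc4 in 3 and Pold3 in 2, with adjusted p of up to 0.0928, 0.116, 0.120, 0.144, 0.146, 0.197 and 0.182. The median of the 38 stayed between -0.26 and -0.16 in these 9 fits.

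With the inhibitor the count of 20 fell to 8, 10 or 7 without control 1, 2 or 3 (limma). It fell to 9 without inhibitor 1 and to 11 without inhibitor 3. Over all genes the count of 1330 higher fell to 742, 786, 754, 748 and 806 in these fits, in the same order. Calls of Pole2, Fen1, Chaf1b, Dtl and Cdca7 held in all 9 fits, with adjusted p of at most 0.0287. Those of Rfc3, Pcna and Rpa2 held in 8, that of Pold1 in 7, that of Rpa1 in 6, that of Pola1 in 5, those of Rfc5, Mcm10, Uhrf1, Dnmt1 and Wdhd1 in 4, those of Prim1 and Chaf1a in 3 and those of Pola2 and Cdc45 in 2, and the largest adjusted p among these was 0.163 (Prim1). The median of the 38 ran from 0.21 to 0.26.

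Set directly against each other, mimic and inhibitor differed most, although this comparison uses the same arrays as the other 2 and adds no new samples. Of the 38 genes 33 were lower with the mimic than with the inhibitor, against 19.9% of all genes, and 0 were higher, against 6.91% of all genes (limma; 0 members higher at an unadjusted p under 0.05). The groups were apart for 34 of the 38, against 25.7% of all genes, and the median difference was -0.43 (log2), against -0.02. Dtl differed 2.17-fold (log2 difference -1.12 ± 0.11; limma, adjusted p = 9.1e-05), Uhrf1 1.85-fold (-0.89 ± 0.10; adjusted p = 0.000279), Cdca7 1.82-fold (-0.86 ± 0.06; adjusted p = 2.7e-05) and Chaf1b 1.68-fold (-0.75 ± 0.09; adjusted p = 0.000349). In all, 10 of the 33 passed 1.5-fold, the others being Lig1, Wdhd1, Dnmt1, Pola1, Prim1 and Fen1, at -0.71 to -0.59. Of all 11963 genes tested, 372 were called lower past 1.5-fold.

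Rfc1, Gins2, Gins4, Rpa3 and Dna2 were the 5 genes not called in this comparison, at -0.35, -0.09, -0.15, 0.11 and -0.06 (limma, adjusted p = 0.0583, 0.342, 0.126, 0.404 and 0.484). Of the 33 calls, 28 held in each of the 9 refits that dropped 1 array. Prim2, Rfc4, Gins1, Gins3 and Slbp lost theirs in at least 1 fit, Prim2 without inhibitor 1 (adjusted p = 0.0923), Rfc4 without mimic 1 or inhibitor 1 (up to 0.0558) and Slbp without inhibitor 1 or 3 (up to 0.103). Gins1 and Gins3 kept theirs in 3 of 9, with adjusted p of up to 0.141 and 0.0926 and calls lost without controls 2 and 3, mimics 1 and 3 and inhibitor 1, and for Gins1 also control 1 and for Gins3 inhibitor 3.

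Other genes of the same pathways were counted in 4 lists that name none of the 38 genes. The shares of all genes called were 2.45% lower with the mimic, 11.1% higher with the inhibitor and 19.9% lower with the mimic than with the inhibitor. Of 16 tested genes of the MCM helicase and origin licensing, 6 fell with the mimic and 8 rose with the inhibitor, with medians of -0.23 and 0.33 (log2). Mcm3 (-0.57), Dbf4 (-0.51) and Mcm5 (-0.49) fell most with the mimic, and Cdt1 (0.54), Mcm3 (0.52) and Mcm4 (0.48) rose most with the inhibitor (limma, adjusted p of at most 0.0233). In nucleotide synthesis 2 of 16 fell with the mimic, Cad (-0.32) and Tyms (-0.21), and 10 of 16 rose with the inhibitor, led by Ppat (0.80), Ctps (0.60) and Mthfd1 (0.59), with medians of -0.15 and 0.31. Mimic and inhibitor differed in 13 of 16 genes of each list, all lower with the mimic.

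Of 15 histone chaperones and other assembly factors, 1 fell with the mimic and 2 rose with the inhibitor, the latter a share near that of all genes. Asf1b, a chaperone that hands histones to CAF-1, fell by 0.45 with the mimic (adjusted p = 0.00283, limma) and rose by 0.25 with the inhibitor, and Hells, the remodeller that works with Cdca7, rose by 0.53 with the inhibitor (adjusted p = 0.0231) and stood at -0.45 with the mimic, not called. The list medians were -0.10 and 0.15, and 8 of the 15 were lower with the mimic than with the inhibitor. Of 17 further replication genes limma called 0 with the mimic (3 at an unadjusted p under 0.05, median -0.05). With the inhibitor 3 of 17 rose, also a share near that of all genes, and 1 fell. Mtbp (0.51), Topbp1 (0.41) and Pole4 (0.33), a small subunit of polymerase epsilon, rose, and Pold4, the small subunit of polymerase delta, fell by 0.41 (limma, adjusted p = 0.0124), against the direction of Pold1. Between mimic and inhibitor, 8 of the 17 were lower with the mimic and 1, Pold4, was higher. Whether these lists differ from the 38 genes was not tested.

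Of the 12 genes with a match to the E2F letters, 10 were called in at least 1 comparison with the control, and of the 19 genes with a window but no match, 13 were. Whether these shares differ was not tested. Of all genes tested, limma called 2.45% lower and 1.10% higher with the mimic, and 3.76% lower and 11.1% higher with the inhibitor. The share of all genes called in at least 1 of these comparisons was not counted. Pole2, Dtl and Cdca7, whose calls held in all 9 inhibitor refits, have a match. The 2 genes with a match that were called in neither comparison with the control were Gins3 and Clspn, and both were lower with the mimic than with the inhibitor. Fen1 and Chaf1b, whose rise with the inhibitor also held in all 9 refits, have no match to these letters in their windows.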

How the data were processed

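NIH-3T3 RNA from 9 samples was hybridised to Affymetrix whole-transcript arrays, with 3 samples a group, grouped by the transfectant in the labels. Values are log2 as the authors deposited them, 1 for each probe set on each array, made with RMA and Partek 6.5 per the submitters' processing notes. RMA corrects background, sets the arrays to 1 distribution of probe values and combines probes by median polish, so each value is relative to the other arrays, and a change shared by most genes would be removed. Annotation settings are not given in the sources used here. The table had 28853 probe sets and no missing value. Probe sets with 1 gene in the platform annotation numbered 21789, those with several 1621, and 5443 had none. Gene IDs of 19856 of 19938 genes matched RefSeq. Genes below the 40th percentile of the mean (3.86) were left out.

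Limma 3.58.1 (R 4.3.3; lmFit, eBayes, 1 coefficient per group, 9 arrays, 6 residual and 4.37 prior degrees of freedom) tested 11963 genes, with Benjamini-Hochberg adjustment over all of them and a threshold of 0.05. Every adjusted p is from limma, standard errors are moderated, and the number of arrays limits the precision. The script was tested on simulated data. The largest share of identical values in a pair of arrays was 3.58%, so none was a copy. The 38 genes, the lists and the tests were chosen with earlier results of these data known. All 38 genes are named; values on each array are given for those called in both comparisons with the control and, within a role, for the 2 called genes with the largest difference in each. Up to 3 called genes are named per further list. Plots used matplotlib 3.10.9 (Python 3.11.15).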

Additional observations from a re-analysis of the deposited data

How the results depend on the processing

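The median of the 38 genes kept its sign under every alternative run in each comparison, and moved by more than the spread between arrays in 1 case, mimic against inhibitor after quantile normalization (-0.33). The count of members lower with the mimic was 8 as reported, 14 after quantile normalization, 13 without mimic 3 and inhibitor 1, 4 with no level filter, 2 after median centring, 2 in fits of only the 6 arrays compared, and 1 to 11 with single arrays left out. Over all genes the count lower with the mimic was 293 as reported, and 439, 427, 234, 159 and 166 in these settings, in the same order. With single arrays left out it ran from 88 to 395. Members higher with the inhibitor numbered 20 as reported, 13 with no filter, 25 in fits of only the 6 arrays compared and 7 to 26 with single arrays left out. Over all genes the count higher was 1330, 1067 and 1918, and 742 to 2067 with single arrays left out. The single member lower with the inhibitor without mimic 3 and inhibitor 1 was Rpa3 (1 gene). With no filter more genes are tested, and with 6 arrays fewer samples share the spread. Why the counts moved was not tested for any setting.

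With the replicate number as a block (replicate block) the mimic count was 4, the inhibitor count 17 and the direct count 32. Over all genes these counts were 196, 1193 and 2280. The labels do not say that a number marks a shared culture or day. Deviations of same-numbered arrays correlated between -0.59 and 0.22 over genes, and the own number correlated best in 6 of 18 cases. With 3 arrays per group, these correlations cannot decide whether arrays of 1 number share a culture or day.

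Over all genes, quantile normalization moved the split of higher to lower calls from 132 to 293 to 335 to 439 with the mimic, from 1330 to 450 to 1269 to 1022 with the inhibitor, and from 827 to 2377 to 1670 to 2028 in the direct comparison. The sign turned only for differences near 0 that limma did not call. With the mimic these were Gins4 after quantile normalization (0.0118) and without mimic 3 and inhibitor 1 (0.0457), and, over single arrays left out, Gins2 (-0.0928 to 0.0137), Gins4 (-0.0726 to 0.0457), Rpa3 (-0.0767 to 0.0265) and Dna2 (-0.0312 to 0.0798). With the inhibitor these were Rfc2 (-0.0950) and Gins2 (-0.0397) after quantile normalization, Rfc4 after median centring (0.0126) and Pold3 without mimic 3 and inhibitor 1 (-0.0126), and, over single arrays left out, Pold3 (-0.0155 to 0.0661), Rfc2 (-0.0237 to 0.0341), Rfc4 (-0.0533 to 0.0443) and Gins2 (-0.0046 to 0.0972). In the direct comparison they were Gins2 after quantile normalization (0.0395) and Dna2 without mimic 3 and inhibitor 1 (0.0229). Arrays give no read depth. Genes near the level filter, such as Gins1, Dna2, Pold3 and Rpa3, have the least signal over background. Of these, Pold3 was called lower with the mimic, with means of 4.35 on control and 4.10 on mimic arrays (log2).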
